A study of Mus musculus with 22 samples.

Results

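The response of microglia to lipopolysaccharide (LPS) was examined in mice that had been exposed to Gulf War chemicals and later treated with cannabidiol (CBD). Microglia are the resident macrophages of the brain, and LPS is a component of the outer membrane of bacteria such as Escherichia coli that activates them. The comparison sets 4 libraries from CBD-treated exposed mice given LPS (GW-CBD-LPS, replicates 1 to 4) against 3 libraries from CBD-treated exposed mice given PBS (GW-CBD-PBS, replicates 2 to 4). These libraries were chosen by their sample labels. They are 7 of the 22 libraries of the series, and 16554 of the 54532 genes in the table had enough counts to be tested.

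All mice were male C57BL/6J. The 7 libraries come from animals injected intraperitoneally at 10 weeks of age, once a day for 10 days, with pyridostigmine bromide (0.7 mg/kg, a carbamate inhibitor of acetylcholinesterase) and permethrin (200 mg/kg, a pyrethroid insecticide). They were then aged to 17.5 months. CBD, a constituent of cannabis that does not cause intoxication, was injected at 30 mg/kg each day over 28 days, and then every 2 days over 2 more weeks. LPS from E. coli (0.33 mg/kg) or PBS was injected once on the morning after the last dose, and the brains were taken 24 hours later. Exposed mice given the vehicle of CBD (GW-Veh-PBS, n = 4, and GW-Veh-LPS, n = 3) and mice that received vehicle in place of both the chemicals and CBD (Ctrl-Veh-PBS and Ctrl-Veh-LPS, n = 4 each) serve for reference. No library comes from CBD-treated mice without the exposure, so CBD is seen here in exposed mice alone. Microglia were sorted as live CD45mid, CD11b+ and CD11a- cells. Whether every library stands for 1 animal is not stated in the labels, and the p-values therefore reflect the variation among libraries, which may in part be technical.

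LPS is sensed by Toll-like receptor 4, whose adaptor proteins switch on NF-kB and interferon regulatory factors and with them cytokine, chemokine and interferon-stimulated genes. Activated microglia lower part of the gene programme that marks their resting, homeostatic state. They can also enter the cell cycle: origins of replication are licensed in G1, DNA is copied in S phase by the fork proteins, and mitosis follows under a separate set of genes.

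Library totals ran from 33100476 to 40458326 counts in GW-CBD-PBS and from 28676930 to 37752035 in GW-CBD-LPS. Microglial markers were high throughout: the 30 homeostatic markers summed to 98460 to 128800 CPM (counts scaled to a common library size) in the 4 LPS libraries and 126900 to 132900 CPM in the 3 PBS libraries. Neutrophil markers summed to 430 to 722 CPM with LPS and 684 to 734 CPM with PBS. All 17 had log2 fold changes below 0 with LPS, with a median of -5.2, and 6 had no counts in any LPS library. The sums changed far less than this median. In the edgeR test described below, 0 of the 17 passed an adjusted p under 0.05. At an unadjusted p under 0.05, 4 were lower, against 576 of all 16554 genes tested. B cell markers summed to 917 to 1061 CPM with LPS and 975 to 1106 CPM with PBS. The sums were 300 to 392 and 327 to 367 CPM for oligodendrocyte markers, and 167 to 212 and 204 to 214 CPM for astrocyte markers. Erythroid markers summed to 61.7 to 400 CPM with LPS and 216 to 384 CPM with PBS. Neuronal markers summed to at most 7.04 CPM, and T and NK cell markers to at most 7.29 CPM. In bulk samples, fewer cells of a type and less RNA per cell cannot be told apart. GW-CBD-LPS replicate 3 stood nearer to the PBS libraries than the other LPS libraries did. On the first principal component of the 7 libraries, which held 29.7% of the variance, it lay at -1.25, the other LPS libraries at 20.5 to 40.8 and the PBS libraries at -35.2 to -22.4. Results are therefore also given without it.

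The genes that rose with LPS in CBD-treated exposed mice included genes of DNA replication and division (26 of 65) and smaller numbers of lysosomal, Fc receptor and interferon-stimulated genes. With edgeR's quasi-likelihood test and a Benjamini-Hochberg adjusted p under 0.05 (called, below), 65 genes were higher, which is 0.393% of the genes tested, and 4 were lower, 0.0242%. The fold changes of the 65 ran from 0.51 to 3.88 on the log2 scale, with a median of 1.59. The 26 belong to 6 lists of replication and division genes (194 genes tested), and 39 of the 65 lie outside these lists. The smallest adjusted p was 0.0129, and 37 of the 65 lay between 0.04 and 0.05. Before adjustment, 1245 genes were higher and 576 lower at p under 0.05, where 828 in all would be expected from unchanged genes. In 64 of the 65 all LPS libraries lay above all PBS libraries, as they did for 8.37% of all genes tested. Replicate 3 was the lowest of the LPS libraries for 63 of the 65, against 22.1% of all genes.

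The number of calls rested on few libraries. Without replicate 3, 198 genes were called higher (1.2%) and 62 lower (0.376%). Without GW-CBD-LPS replicate 1, 2 or 4 the counts fell to 4, 10 and 4 higher and 0 lower. Without GW-CBD-PBS replicate 2, 3 or 4 edgeR called 0 genes, with 1187, 1708 and 1241 genes at an unadjusted p under 0.05 and smallest adjusted p-values of 0.150, 0.0991 and 0.186. A fit of the 7 libraries alone called 56 higher and 3 lower, which include 26 of the 65 and 0 of the 4. With replicate number as a block in the fit of all libraries, edgeR called 0 higher and 0 lower. With all libraries, DESeq2 called 296 higher and 55 lower, and limma voom with quality weights 2071 higher and 1708 lower. These counts over all 16554 genes, and those at an unadjusted p under 0.05, are the reference for the counts within lists below. The libraries of the other groups enter the shared estimate of the spread, and leaving out any 1 of these gave 13 to 99 higher and 0 to 7 lower. Leaving out 3 of them in which neutrophil markers were raised (Ctrl-Veh-PBS replicate 3, Ctrl-Veh-LPS replicate 1 and GW-Veh-PBS replicate 1, below the neutrophil-marked libraries) gave 141 higher and 14 lower. Each of the 65 genes kept a log2 fold change above 0 in every one of these fits, with medians of 1.43 to 1.77. The fits reuse the libraries by which the genes were chosen, so the kept sign carries no test.

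**Figure D1:**
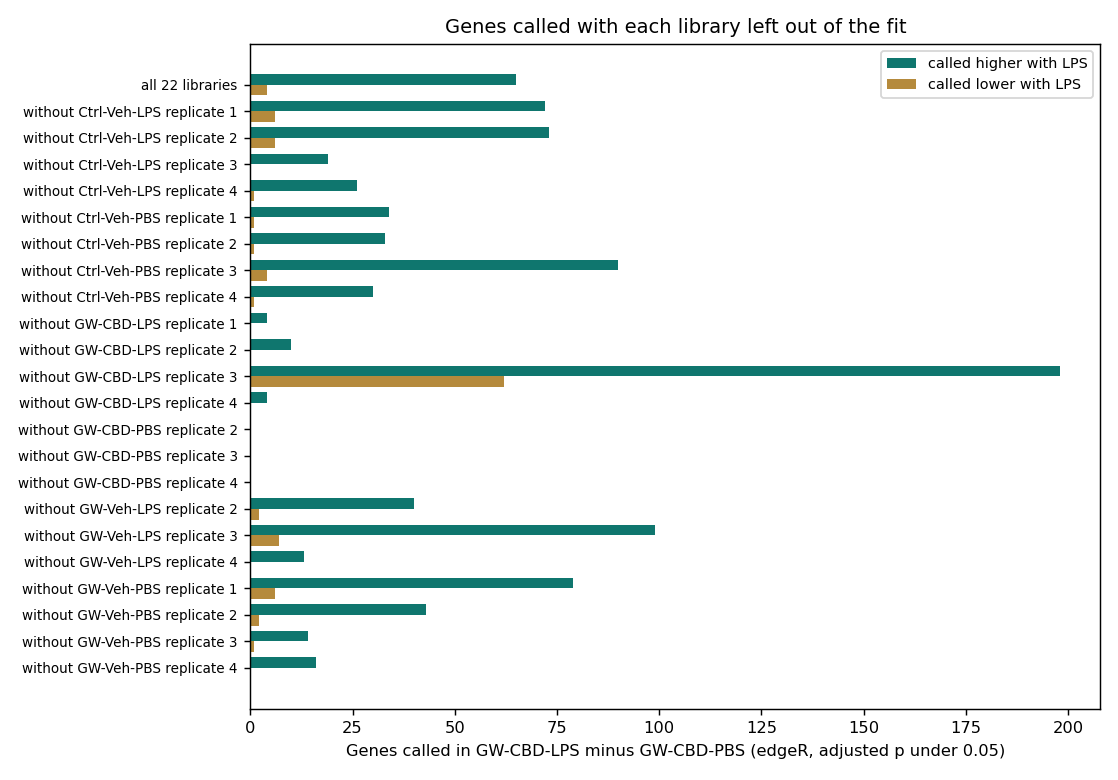
Number of genes called higher or lower with LPS in CBD-treated exposed mice (x axis, genes with adjusted p under 0.05) when each of the 22 libraries named on the y axis is left out in turn. The count ranges from 0 without any 1 of the GW-CBD-PBS libraries to 198 higher and 62 lower without GW-CBD-LPS replicate 3.

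Genes that load and fire replication origins were clearly higher in 3 of the 4 LPS libraries than with PBS. Of 25 tested, 5 were called higher and 21 were above 0, with a median log2 fold change of 1.66 against 0.00 over all genes tested. DESeq2 called 15, and edgeR called 14 without replicate 3. Mcm7, a subunit of the MCM2-7 helicase that unwinds DNA at the fork (chromosome 5, 138164583 to 138172422, minus strand), was at 126, 123, 38.7 and 122 CPM in LPS replicates 1 to 4 and at 25.9, 25.7 and 24.0 CPM in the PBS libraries. The groups did not overlap, and replicate 3 lay nearer to PBS than to the other LPS libraries. The log2 fold change was 2.02 ± 0.36 (SE, adjusted p = 0.0201). Mcm6, another subunit of the helicase (chromosome 1, 128331590 to 128359664), was at 186, 202, 42.7 and 153 CPM with LPS and at 33.0, 35.1 and 30.5 CPM with PBS, a log2 fold change of 2.15 ± 0.47 (adjusted p = 0.0485). Cdt1, which brings the helicase to origins, also had replicate 3 as the lowest LPS library, with 51.4, 49.3, 21.9 and 52.9 CPM against 13.8 to 16.5 CPM (1.51 ± 0.26, adjusted p = 0.0201). Orc1, the largest subunit of the origin recognition complex, was low in all libraries, at 3.50, 2.52, 0.904 and 2.65 CPM with LPS and 0.203 to 0.310 CPM with PBS, and rose by 3.21 ± 0.68 (adjusted p = 0.0456). Gins2, part of the GINS complex that activates the helicase, rose by 1.88 ± 0.37 (adjusted p = 0.0392), from 5.06 to 7.72 CPM with PBS to 8.54 to 33.5 CPM with LPS.

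The proteins that copy DNA at the fork and assemble new chromatin behind it formed the group with the most calls. Of 35 tested, 13 were called higher and all 35 were above 0, with a median log2 fold change of 1.29. DESeq2 called 28, and edgeR called 25 without replicate 3. Chaf1b, a subunit of the chromatin assembly factor CAF-1 (chromosome 16, 93883901 to 93906115), was at 21.6, 16.7, 6.90 and 20.4 CPM with LPS and 2.53, 2.82 and 1.74 CPM with PBS. All LPS libraries were above all PBS libraries, with replicate 3 the lowest, and the log2 fold change was 2.79 ± 0.47 (adjusted p = 0.0182). Pcna, the sliding clamp of the DNA polymerases, was at 148, 97.8, 75.2 and 168 CPM with LPS against 41.9, 55.6 and 51.5 CPM with PBS (1.30 ± 0.25, adjusted p = 0.0388). Rfc3, part of the clamp loader, differed less between LPS libraries, at 31.6, 25.9, 24.7 and 35.8 CPM, and stood at 12.5 to 14.9 CPM with PBS. Its log2 fold change was 1.10 ± 0.22 (adjusted p = 0.0392). Prim1, the catalytic subunit of primase, rose by 2.48 ± 0.51, and Lig1, the ligase that joins Okazaki fragments, by 2.16 ± 0.46 (adjusted p = 0.0438 and 0.0456). The histone chaperone Asf1b rose by 2.29 ± 0.46 (adjusted p = 0.0392). Further called genes whose products act at the fork were in none of the lists: Dnajc9, another histone chaperone (1.30 ± 0.26, adjusted p = 0.0392), Chtf18, of an alternative clamp loader (2.20 ± 0.44, adjusted p = 0.0392), Pole3, an accessory subunit of DNA polymerase epsilon (0.72 ± 0.15, adjusted p = 0.0456), and Ung, the uracil DNA glycosylase (3.05 ± 0.67, adjusted p = 0.0485). Chtf18, Pole3 and Ung were chosen here after their values were seen. Pole3 had the tightest libraries of these, at 33.4, 32.7, 24.8 and 37.8 CPM with LPS and 18.5 to 20.3 CPM with PBS.

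Tcf19, a gene switched on at the G1 to S transition and placed in the fork and chromatin list (chromosome 17, 35512734 to 35516824), had the smallest p among the replication genes. It was at 44.6, 22.1, 14.3 and 40.1 CPM with LPS and 3.99, 4.45 and 3.79 CPM with PBS, so that the lowest LPS library stood above the highest PBS library. The log2 fold change was 2.89 ± 0.45 (adjusted p = 0.0129). Genes of nucleotide supply and of the G1 to S step had fewer calls. Ccne1, which encodes cyclin E1 and is the 1 gene called of 31 G1 to S regulators (median 0.53), was at 16.6, 5.28, 5.26 and 11.6 CPM with LPS and 0.454 to 0.926 CPM with PBS (3.79 ± 0.81, adjusted p = 0.0475). Of 27 genes of nucleotide supply 2 were called, with a list median of 0.44. Among these was Tk1, thymidine kinase 1, which salvages thymidine in S phase. Tk1 was at 42.9, 15.4, 13.5 and 42.5 CPM with LPS and 3.67 to 4.85 CPM with PBS (2.76 ± 0.59, adjusted p = 0.0456), with replicates 1 and 4 well above replicates 2 and 3.

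Of 28 genes of recombination repair and the replication checkpoint 4 were called, 27 were above 0, and the median was 0.79. Exo1, an exonuclease that resects DNA ends, was at 10.4, 7.93, 2.26 and 9.78 CPM with LPS and 1.12, 0.150 and 1.65 CPM with PBS. The groups did not overlap, with replicate 3 the lowest LPS library, and the log2 fold change was 2.97 ± 0.62 (adjusted p = 0.0456). The ubiquitin ligase Rad18 rose by 1.31 ± 0.29 (adjusted p = 0.0485).

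Genes of mitosis were nearly all above 0 but seldom called. Of 48 tested, 47 were above 0 with a median of 1.30. In 31 all LPS libraries lay above all PBS libraries, as they did for 8.37% of all genes tested. edgeR called 1, DESeq2 9, and edgeR without replicate 3 called 4. The 1 called gene was Cks1b, which binds cyclin-dependent kinases, at 20.9, 17.1, 11.4 and 30.9 CPM with LPS against 4.95 to 6.09 CPM with PBS (1.89 ± 0.41, adjusted p = 0.0483). Called genes with a role in the spindle but in none of the lists were Ercc6l, a DNA translocase of mitotic chromosomes (1.99 ± 0.40, adjusted p = 0.0392), and, chosen after their values were seen, Spdl1, Tacc3 and Stmn1. Spdl1, a kinetochore adaptor of dynein, was at 4.44, 4.68, 2.18 and 5.85 CPM with LPS against 0.608 to 1.08 CPM with PBS (2.39 ± 0.52, adjusted p = 0.0485). Tacc3, which stabilises spindle microtubules, rose by 1.42 ± 0.31 (adjusted p = 0.0483), and Stmn1, which destabilises microtubules, by 1.70 ± 0.37 (adjusted p = 0.0483). Mki67, the common marker of cycling cells, was at 13.5, 4.32, 5.23 and 5.23 CPM with LPS and 1.10, 2.02 and 1.48 CPM with PBS. The groups did not overlap, but replicate 1 was far above the other LPS libraries, and the log2 fold change of 2.21 ± 0.86 had an adjusted p of 0.332.

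**Figure D2:**
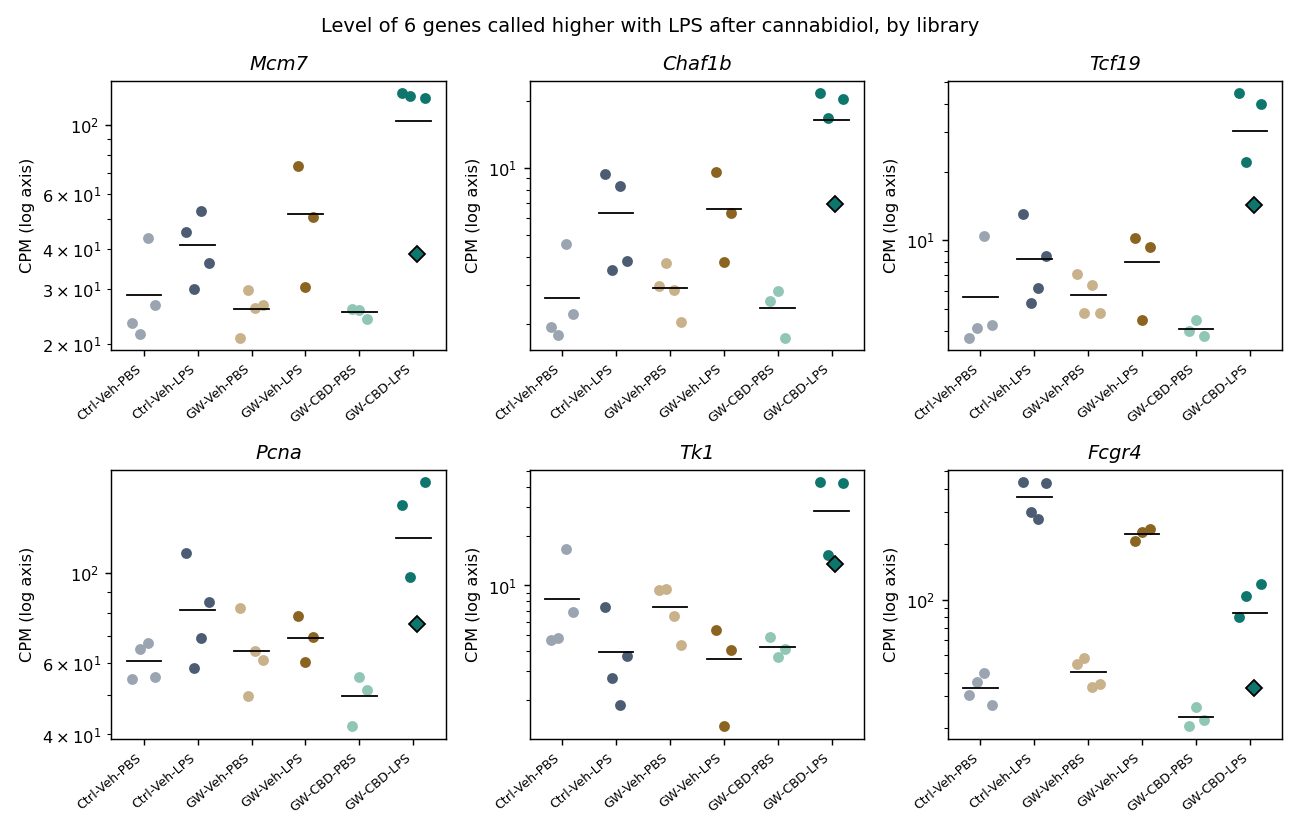
CPM (y axis, log scale) of Mcm7, Chaf1b, Tcf19, Pcna, Tk1 and Fcgr4 in each library (points) of the 6 groups (x axis), with black lines at group means and a black-edged diamond for GW-CBD-LPS replicate 3. In GW-CBD-LPS the 3 other libraries have Mcm7 at 122 to 126 CPM and replicate 3 at 38.7 CPM, and the GW-CBD-PBS libraries lie at 24.0 to 25.9 CPM.

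Promoters of some called replication genes carry matches to the E2F motif, the element bound by the transcription factors that switch on S phase genes. The stretches are shown because these genes moved together. Promoters were the 250 bases before each RefSeq start (GRCm38.p6), and 11295 of the 16554 genes tested had one. Motifs were searched on both strands. As E2F motif the letters TTTCCCGC, TTTGGCGC, TTTCGCGC and TTTGCCGC were used, and matches are in capitals.
Mcm7, chr5:138172030-138172059, minus strand: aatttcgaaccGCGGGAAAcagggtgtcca
Mcm6, chr1:128359797-128359826, minus strand: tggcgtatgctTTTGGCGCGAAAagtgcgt
Mcm6, chr1:128359734-128359763, minus strand: gattggacgggTTTGGCGCgaagtagctca
Orc1, chr4:108579416-108579445, plus strand: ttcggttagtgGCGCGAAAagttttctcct
Rfc3, chr5:151651209-151651238, minus strand: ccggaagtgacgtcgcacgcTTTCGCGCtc
Paqr4, chr17:23740395-23740424, minus strand: aggaatccagcGCGCGAAAcacaggcaggg
The matches begin 165 bases before the start in Mcm7, 110 and 47 in Mcm6, 27 in Orc1, 10 in Rfc3 and 83 in Paqr4. The Mcm7 gene span given above starts further upstream than the RefSeq start used, so the Mcm7 stretch lies inside that span. The first Mcm6 stretch holds 2 overlapping matches, 1 on each strand.

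These matches describe letters in the promoters, not binding. Such a match was present in 3.71% of all promoters, in 5 of 48 promoters of genes called higher (10.4%) and in 4 of 21 promoters of those called in the replication and division lists (19.0%). By whole list it was present in 7 of 19 of the origin list (36.8%), 7 of 23 of the G1 to S list (30.4%), 4 of 20 of the repair list, 4 of 31 of the fork list (12.9%), 4 of 40 of the mitosis list (10.0%) and 1 of 24 of the nucleotide supply list (4.17%). In the mitosis list 16 of 40 promoters held TTTGAA, the core of the CHR element of mitotic genes, against 13% of all. CCAAT was held by 32 of these 40 (80.0%), against 40.2% of all. Both shares were the highest of the 6 lists, but other lists were raised too. TTTGAA was held by 26.1% of G1 to S, 21.1% of origin and 19.4% of fork promoters. The nucleotide supply list had 8.33% and the repair list 1 of 20. CCAAT was held by 68.4% of origin, 61.3% of fork and 12 of 20 repair promoters. For G1 to S and nucleotide supply it was 43.5% and 41.7%. Differences between lists were not tested. Paqr4, the 1 called gene with an E2F match outside the replication lists, encodes a membrane protein of the progestin and adipoQ receptor family and was chosen here after its values were seen. It was at 37.0, 29.6, 16.7 and 43.1 CPM with LPS and 13.3 to 16.3 CPM with PBS (1.13 ± 0.25, adjusted p = 0.0485).

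The replication genes were measured in the same way in exposed mice without CBD and in control mice, whose libraries are not shared with this comparison. The 26 called replication and division genes had a median log2 fold change of 2.16 in CBD-treated exposed mice, 0.55 in exposed mice without CBD and 0.53 in control mice, where 3 and 6 of them were called higher. Since they were chosen by their rise in the first comparison, these medians describe the genes and carry no test. Mcm7 stood at 51.7 ± 21.8 CPM (SD, n = 3) in GW-Veh-LPS and 25.8 ± 3.64 (n = 4) in GW-Veh-PBS, and at 41.2 ± 10.2 and 28.7 ± 10.1 in the control groups (n = 4 each). The summed origin genes were at 1371, 1438, 533 and 1167 CPM in GW-CBD-LPS and 447 to 454 CPM in GW-CBD-PBS. In GW-Veh-LPS the sums were 458, 754 and 1003 CPM, so that replicate 3 of GW-CBD-LPS lay within the range of that group and the other 3 above it.

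The tests of the difference between responses gave calls for some of these genes against control mice and for none against exposed mice without CBD. Tk1 stood at 8.27 ± 5.75 CPM in Ctrl-Veh-PBS and 3.91 ± 2.42 CPM in Ctrl-Veh-LPS (SD, n = 4 each), a change not called, and its response differed by 3.85 on the log2 scale (adjusted p = 0.0122). Tcf19 differed by 2.34 (adjusted p = 0.0355), and both were higher in CBD-treated exposed mice. For Mcm7 the difference from control mice was 1.50 ± 0.46 with an adjusted p of 0.0954. Against exposed mice without CBD the differences were 2.41 ± 0.59 for Tcf19 (adjusted p = 0.0913), 3.81 ± 0.80 for Tk1 (0.0654) and 1.02 ± 0.48 for Mcm7 (0.315). Ctrl-Veh-PBS replicate 3 had summed neutrophil markers of 27250 CPM and summed mitosis genes of 752 CPM, where its 3 fellow libraries had mitosis sums of 275 to 326 CPM. With the 3 neutrophil-marked libraries left out, the differences from control mice were 3.76 for Tk1 and 2.18 for Tcf19, with adjusted p-values of 0.0145 and 0.0326. The median of the mitosis list in control mice was -1.13 with these libraries (2 called higher, 11 lower) and -0.41 without them (2 higher, 3 lower), beside -0.53 and -0.66 in exposed mice without CBD.

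**Figure D3:**
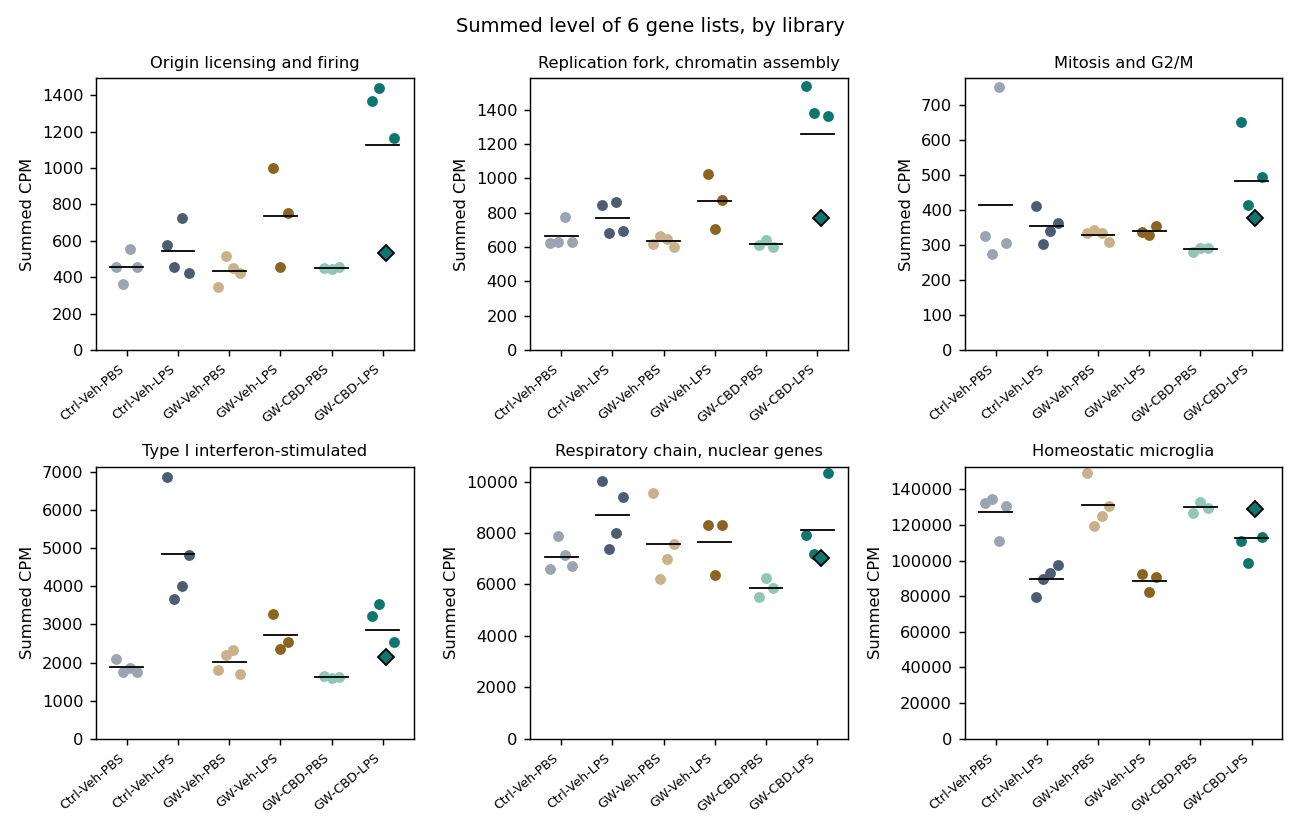
Summed CPM (y axis) of 6 gene lists in each library (points) of the 6 groups (x axis), with black lines at group means and a black-edged diamond for GW-CBD-LPS replicate 3. The origin sum is at 1167 to 1438 CPM in 3 GW-CBD-LPS libraries and at 533 CPM in replicate 3, and the mitosis sum is highest in Ctrl-Veh-PBS replicate 3 at 752 CPM.

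A pair of surface receptors of activated myeloid cells were among the genes with the smallest adjusted p. Fcgr4, an activating receptor for IgG (chromosome 1, 171018920 to 171029761), was at 80.2, 105, 32.9 and 121 CPM with LPS and 20.4, 26.0 and 22.3 CPM with PBS. The groups did not overlap, and replicate 3 stood close to the PBS range. The log2 fold change was 1.89 ± 0.30 (adjusted p = 0.0129), beside 2.50 in exposed mice without CBD and 3.44 in control mice. The difference from control mice was -1.56 (adjusted p = 0.041), and -1.55 with an adjusted p of 0.0682 without the 3 neutrophil-marked libraries. Its promoter held the core of the interferon-stimulated response element (GAAA repeated after a gap of 2 bases, on either strand). Such a match was found in 3.4% of all promoters and in 1 of 48 promoters of genes called higher (2.08%). In the interferon list 13 of 33 promoters (39.4%) held it. In Fcgr4 the match begins 73 bases before the start, and it is in capitals in the stretch given here to show where it lies.
Fcgr4, chr1:171018843-171018872, plus strand: ggtgtttctgGAAAAGGAAActggtgagat
Cd244a, a receptor of the SLAM family (chromosome 1, 171559193 to 171609746), was at 28.5, 66.7, 10.8 and 37.0 CPM with LPS and 5.03 to 6.17 CPM with PBS. It rose by 2.67 ± 0.42 (adjusted p = 0.0129), and replicate 3 was again the lowest LPS library. In control mice it went from 3.72 ± 1.30 to 210 ± 25.9 CPM (n = 4 each), a log2 fold change of 5.82, and the difference of the responses was -3.15 (adjusted p = 0.00609).

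Lysosomal and metabolic enzymes were among the genes that rose, several by small factors. Of 35 lysosomal genes 3 were called higher, and the list median was 0.04. Gusb, beta-glucuronidase, was at 768, 799, 585 and 773 CPM with LPS and 465, 501 and 477 CPM with PBS (0.60 ± 0.11, adjusted p = 0.0213). Ctsc, the protease cathepsin C, rose by 0.76 ± 0.15 (adjusted p = 0.0392) and Ctsh, cathepsin H, by 0.60 ± 0.13 (adjusted p = 0.0485), and for both the groups were separate. Ifi30, a lysosomal thiol reductase used in antigen processing, rose more, from 85.5 to 101 CPM with PBS to 219, 211, 157 and 336 CPM with LPS (1.29 ± 0.23, adjusted p = 0.0235). Galns, a lysosomal sulfatase, went from between 23 and 27.4 CPM to 62.5, 72.5, 45.0 and 64.7 CPM (1.29 ± 0.22, adjusted p = 0.0201). Psat1, an enzyme of serine synthesis and the 1 called of 24 genes of the endoplasmic reticulum and integrated stress list, rose by 1.18 ± 0.23 (adjusted p = 0.0392). Ahcy, which hydrolyses S-adenosylhomocysteine, rose by 1.37 ± 0.26 (adjusted p = 0.0345). Psat1 rose by less than in control mice (difference -1.47, adjusted p = 0.0161).

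Tspo, the outer mitochondrial membrane protein bound by tracers used to image activated microglia, and Ly6a, a GPI-anchored surface protein induced by interferons, were also called and were chosen here after their values were seen. Tspo was at 266, 283, 145 and 439 CPM with LPS against 76.5, 113 and 89.8 CPM with PBS, with replicate 3 closest to PBS (1.61 ± 0.36, adjusted p = 0.0485). Ly6a was at 26.5, 27.4, 18.9 and 39.95 CPM against 8.10 to 10.8 CPM (1.62 ± 0.35, adjusted p = 0.0485). The PBS groups without CBD stood higher, at 14.1 to 27.1 CPM in Ctrl-Veh-PBS and 14.5 to 30.1 CPM in GW-Veh-PBS. LPS replicate 4 alone lay above both ranges. Naaa, which degrades N-acylethanolamines, was the member of the endocannabinoid list with the smallest p. It was at 213, 213, 122 and 301 CPM with LPS and 79.7 to 92.6 CPM with PBS, all libraries apart, and the log2 fold change of 1.29 ± 0.30 had an adjusted p of 0.0553. Of the 15 genes of that list edgeR called 0, with 1 higher and 1 lower at an unadjusted p under 0.05. DESeq2 called 1 higher, edgeR without GW-CBD-LPS replicate 3 1 higher, voom 2 higher and 1 lower, and the median was -0.04. Over all 16554 genes tested, DESeq2 called 296 higher, and voom called 2071 higher and 1708 lower.

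Interferon-stimulated genes lay above 0 in nearly all cases, and the number called differed between settings. Of 44 tested 2 were called higher and 43 were above 0, with a median of 0.67, and 32 had an unadjusted p under 0.05. DESeq2 called 12 and voom 37, and edgeR called 9 without replicate 3 and 7 without the 3 neutrophil-marked libraries. Over all genes tested, these settings called 296, 2071, 198 and 141 higher, and 1245 were higher at an unadjusted p under 0.05. In control mice 31 were called with a median of 0.93, and in exposed mice without CBD 3 with a median of 0.14. The called members were Ifi27l2a (1.89 ± 0.39, adjusted p = 0.0438) and the secreted glycoprotein Lgals3bp. Lgals3bp was at 1085, 1217, 710 and 885 CPM with LPS and 456 to 458 CPM with PBS (1.09 ± 0.24, adjusted p = 0.0483). Ifi204, of the DNA-sensing p200 family and listed with nucleic acid sensors, rose from 21.2 to 22.6 CPM to 50.5, 67.7, 30.0 and 45.8 CPM (1.14 ± 0.24, adjusted p = 0.0456). Ifit3, a classical interferon target, was at 64.6, 71.9, 42.9 and 56.1 CPM against 25.1 to 36.0 CPM, separate groups with a log2 fold change of 0.88 ± 0.33 and an adjusted p of 0.307. The summed list was at 3231, 3530, 2143 and 2541 CPM in GW-CBD-LPS and 1582 to 1647 CPM in GW-CBD-PBS, against 3659 to 6867 CPM in Ctrl-Veh-LPS and 2358 to 3282 CPM in GW-Veh-LPS.

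Cytokine, chemokine and NF-kB genes, the usual readout of LPS, gave no call at this depth and number of libraries. Of 19 cytokine genes edgeR and DESeq2 called 0, none had an unadjusted p under 0.05, and voom called 1 higher and 2 lower. Over all 16554 genes tested, voom called 2071 higher and 1708 lower. The median of the cytokine list was 0.11, beside 1.04 in control mice, where 5 were called higher. Tnf, a leading cytokine of activated microglia, was at 47.0, 114, 60.4 and 60.2 CPM with LPS and 38.4, 71.2 and 32.9 CPM with PBS. PBS replicate 3 lay above 3 of the 4 LPS libraries, and the log2 fold change of 0.57 ± 0.42 had an adjusted p of 0.682. Il1b, interleukin 1 beta, was at 70.4, 176, 68.3 and 112 CPM against 63.1, 158 and 39.5 CPM, overlapping throughout (0.30 ± 0.61, adjusted p = 0.912).

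Of 18 chemokine genes edgeR and DESeq2 called 0, with 2 higher and 1 lower at an unadjusted p under 0.05 and 4 and 2 by voom, and the median was 0.26. Over all 16554 genes tested, 1245 were higher and 576 lower at that p, and voom called 2071 and 1708. Cxcl10, an interferon-induced chemokine, was at 16.4 to 24.2 CPM with LPS and 10.0 to 17.1 CPM with PBS (0.69 ± 0.55, adjusted p = 0.701). Ccl12, a ligand of Ccr2, was at 120, 163, 118 and 197 CPM against 44.9 to 78.2 CPM, with separate groups and an adjusted p of 0.297 (1.37 ± 0.50). Of 29 NF-kB pathway genes edgeR called 0 (2 higher and 1 lower at an unadjusted p under 0.05, DESeq2 1 and 1, voom 2 and 4), with a median of -0.13. Without GW-CBD-LPS replicate 3 edgeR called 1 of the 29 lower. Socs3, the feedback inhibitor of cytokine signalling, was at 430, 920, 417 and 600 CPM with LPS and 334, 443 and 236 CPM with PBS. The groups overlapped, and the log2 fold change was 0.81 ± 0.30 (adjusted p = 0.305). In control mice Socs3 went from 224 ± 42.7 to 1483 ± 270 CPM (n = 4 each), and the responses differed by -1.92 (adjusted p = 0.0173).

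Homeostatic microglial genes gave no edgeR call with all libraries either. Of 30 tested, 22 were below 0 with a median of -0.15. edgeR and DESeq2 called 0, with 1 higher and 6 lower at an unadjusted p under 0.05, and voom called 2 higher and 10 lower. Without GW-CBD-LPS replicate 3 edgeR called 2 of the 30 lower (median -0.21), against 0.376% of all genes. In each of the other LPS responses 13 of the 30 were called lower (and 1 higher in control mice), with medians of -0.48 in exposed mice without CBD and -0.43 in control mice. P2ry12, the purinergic receptor that guides microglial processes (chromosome 3, 59216272 to 59262871), was at 3517, 2454, 5077 and 3337 CPM with LPS and 4907, 5594 and 5518 CPM with PBS. Replicate 3 lay within the PBS range and the other 3 below it (-0.57 ± 0.20, adjusted p = 0.275). In control mice P2ry12 went from 5877 ± 969 to 1353 ± 289 CPM (n = 4 each), and the difference of 1.55 between the responses had an adjusted p of 0.00829. Against exposed mice without CBD the difference was 1.09 (adjusted p = 0.118). Tmem119, a microglia-specific membrane protein, differed little (-0.11 ± 0.12, adjusted p = 0.794), as did Cx3cr1, the fractalkine receptor (-0.24 ± 0.15, adjusted p = 0.597).

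Genes of class II antigen presentation lay below 0 at the median, -0.63 over 12 genes, and 1 was called by edgeR, Ifi30, in the upward direction. At an unadjusted p under 0.05, 1 was higher and 6 were lower. DESeq2 called 1 higher and 5 lower, voom 2 higher and 6 lower, and edgeR without GW-CBD-LPS replicate 3 called 1 higher and 1 lower. In 6 of them all LPS libraries were below all PBS libraries, as they were for 5.79% of all genes tested. In exposed mice without CBD 7 were called lower (median -1.31), and in control mice 6 (median -0.84). H2-Aa, a class II alpha chain, was at 93.4, 43.4, 138 and 113 CPM with LPS and 164, 452 and 153 CPM with PBS (-1.41 ± 0.42, adjusted p = 0.181). PBS replicate 3 was far above the others for H2-Aa and for the invariant chain Cd74, at 2134 CPM against 868 and 825 CPM. That library also had the highest monocyte marker sum of the PBS libraries, 485 CPM against 172 and 222 CPM, and its part in the result was not tested. Of 28 genes of the disease-associated microglial state edgeR called 0 (5 higher and 6 lower at an unadjusted p under 0.05, DESeq2 1 and 2, voom 6 and 6). Without GW-CBD-LPS replicate 3 edgeR called 1 of these higher and 3 lower. Trem2, the lipid receptor upstream of that state, was at 1155 to 2184 CPM with LPS and 1922 to 2274 CPM with PBS (-0.25 ± 0.20, adjusted p = 0.71).

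Genes for the machinery of respiration and translation lay above 0 in large numbers without a call. Of 81 nuclear-encoded respiratory chain genes, 80 were above 0 with a median of 0.67. In 54 all LPS libraries lay above all PBS libraries, as they did for 8.37% of all genes tested. edgeR called 0, with 55 higher at an unadjusted p under 0.05, DESeq2 called 13, and edgeR without GW-CBD-LPS replicate 3 called 3. The same list had a median of -0.20 in exposed mice without CBD and 0.43 in control mice. Its sum was at 7923, 7171, 7045 and 10320 CPM with LPS and 5501, 6266 and 5852 CPM with PBS. Beside the PBS groups without CBD, at 6600 to 7884 CPM in Ctrl-Veh-PBS and 6214 to 9558 CPM in GW-Veh-PBS, LPS replicate 4 lay above both ranges and PBS replicates 2 and 4 lay below both. Of 87 cytosolic ribosomal protein genes 84 were above 0 with a median of 0.65 (DESeq2 called 12, edgeR 0, edgeR without GW-CBD-LPS replicate 3 1, 43 at an unadjusted p under 0.05). The strongest members by p were Uqcr11 of respiratory complex III (1.26 ± 0.30, adjusted p = 0.0698) and Rpl38 of the large ribosomal subunit (1.70 ± 0.41, adjusted p = 0.0679). Both were highest in LPS replicate 4, at 115 CPM for Uqcr11 against 58.1 to 72.9 CPM in the other LPS libraries. For both genes, all GW-CBD-PBS libraries lay below all PBS libraries without CBD.

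Proteasome genes were above 0 in 31 of 31 cases with a median of 0.33, with no call by edgeR or DESeq2, 14 at an unadjusted p under 0.05 and 21 called by voom. Ribosome biogenesis genes behaved otherwise. Of 24 tested edgeR and DESeq2 called 0 in CBD-treated exposed mice (3 at an unadjusted p under 0.05, voom 3 higher and 1 lower), with a median of 0.09. In exposed mice without CBD 16 were called higher (median 0.67) and in control mice 21 (median 0.91), and for 10 the response was called lower in CBD-treated exposed mice than in control mice (5 without the 3 neutrophil-marked libraries). Glucocorticoid-induced genes were similar: 0 of 13 were called by edgeR or DESeq2 (1 higher and 2 lower at an unadjusted p under 0.05, and by voom), with a median of 0.03 beside 1.27 and 1.46 in the other responses. For 2 of these 13 the difference from control mice was called (1 without the 3 neutrophil-marked libraries). Fkbp5, a co-chaperone of the glucocorticoid receptor, was at 84.5, 113, 89.1 and 63.1 CPM with LPS and 74.5 to 87.9 CPM with PBS in CBD-treated mice, and went from 64.7 ± 4.79 to 388 ± 153 CPM in control mice (n = 4 each), a difference of -2.46 (adjusted p = 0.0284). Ddit4, an inhibitor of mTORC1, was at 3.70 to 4.80 CPM with LPS and 2.25 to 5.44 CPM with PBS, overlapping groups, and went from 3.80 ± 1.10 to 63.0 ± 44.1 CPM in control mice. Its difference of -3.96 had an adjusted p of 0.0302, and 0.0502 without the 3 neutrophil-marked libraries.

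**Figure D4:**
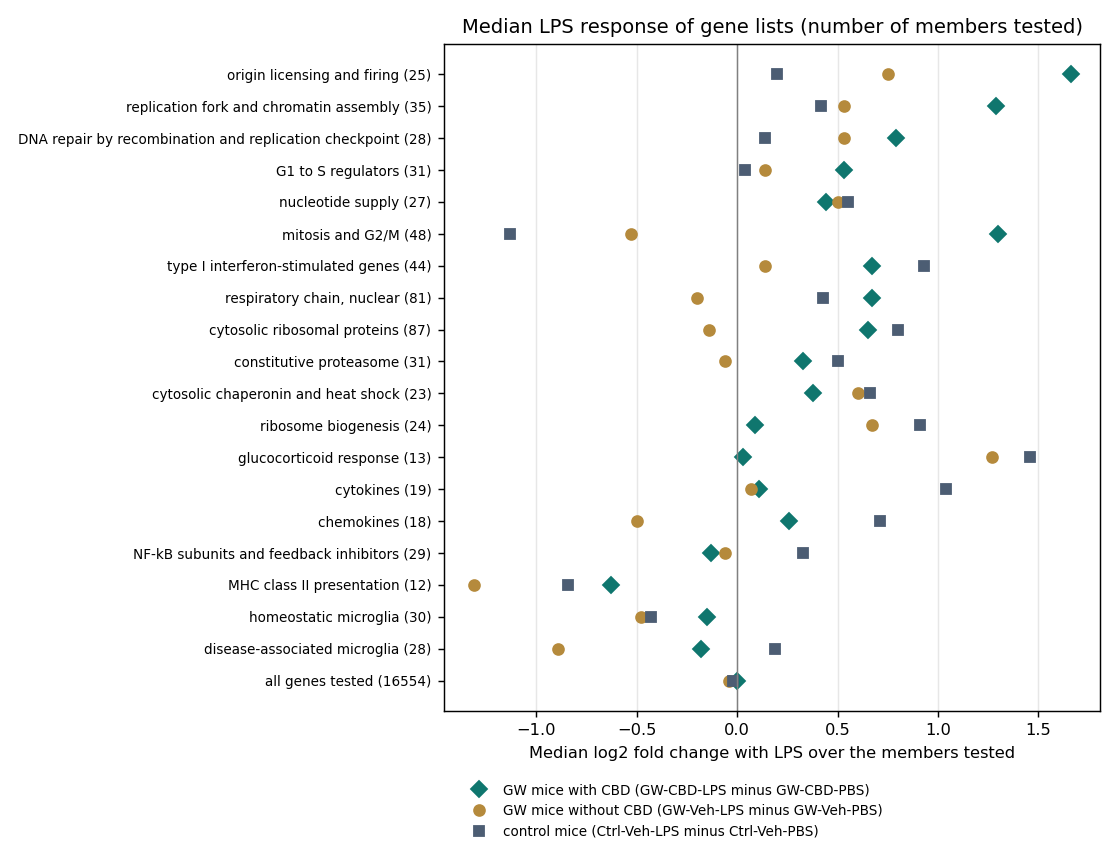
Median log2 fold change with LPS (x axis) of 19 gene lists and of all genes tested (y axis) in CBD-treated exposed mice, exposed mice without CBD and control mice (points by colour). In CBD-treated exposed mice the origin, fork and mitosis lists lie at 1.66, 1.29 and 1.30, and the cytokine, glucocorticoid and ribosome biogenesis lists at 0.03 to 0.11.

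The 4 genes called lower were Rnase10, Phf1 and 2 predicted genes of chromosome 14. Rnase10, of the ribonuclease A family (chromosome 14, 51007751 to 51010758), was at 2.04, 1.12, 2.69 and 2.18 CPM with LPS and 4.59, 5.87 and 6.83 CPM with PBS (-1.52 ± 0.32, adjusted p = 0.0456). Phf1, a cofactor of Polycomb repressive complex 2, was at 29.9, 27.6, 47.6 and 32.8 CPM with LPS and 66.8, 53.1 and 70.1 CPM with PBS (-0.88 ± 0.19, adjusted p = 0.0483). For both the groups were separate, with replicate 3 the highest LPS library. The others, Gm3005 (-2.35, adjusted p = 0.0392) and Gm3173 (-1.96, adjusted p = 0.0456), were named after their values were seen and are uncertain, since near-identical copies can share their reads. All 4 were also called lower in both other LPS responses. None of the 4 was called in the fit of the 7 libraries alone, which called 3 other genes lower.

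Genes called with LPS in control mice mostly had log2 fold changes of the same sign in CBD-treated exposed mice, with smaller medians, and few of them were called there. LPS called 1785 genes higher (10.8% of those tested) and 1593 lower (9.62%) in control mice. Of the 1785, 79.9% were above 0 in CBD-treated exposed mice, with a median of 0.22 against 0.75 in control mice and 0.35 in exposed mice without CBD. Of the 1593, 82.6% were below 0, with medians of -0.24, -1.14 and -0.65. Over all 16554 genes, 8278 were above 0 and 8265 below 0. Only 34 and 4 of these genes were called the same way with CBD. Genes called in exposed mice without CBD (737 higher, 4.45%, and 840 lower, 5.07%) had medians of 0.16 and -0.22 in CBD-treated exposed mice, and 18 and 4 were called the same way. Genes chosen by a call in 1 comparison tend to have larger fold changes there than elsewhere, so the medians are a description. Without GW-CBD-LPS replicate 3 the medians for the control genes were 0.27 and -0.30.

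**Figure D5:**
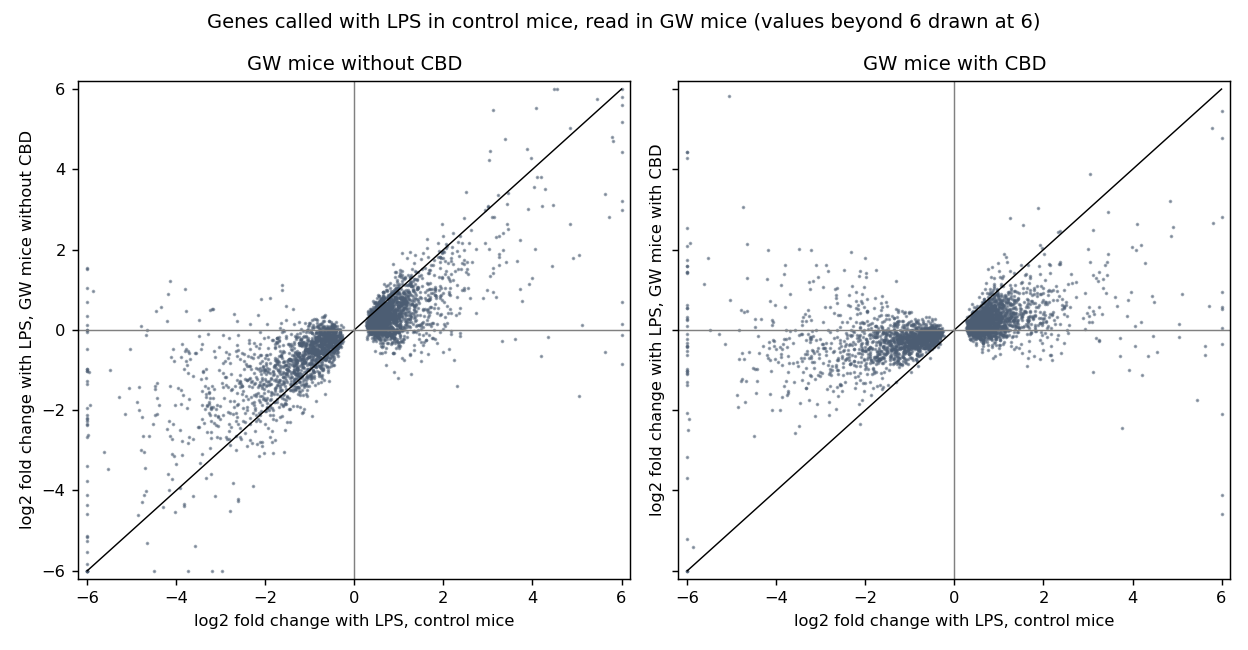
Genes called with LPS in control mice: their log2 fold change in control mice (x axis) against that in exposed mice without CBD (left, y axis) and in CBD-treated exposed mice (right, y axis), with a line of equality and values beyond 6 drawn at 6. In CBD-treated exposed mice most points lie on the side of the line nearer to 0, with medians of 0.22 for genes higher and -0.24 for genes lower in control mice.

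Among genes with the strongest response in control mice, the acute-phase gene Saa3 and the B cell chemokine Cxcl13 stood low in CBD-treated exposed mice. Saa3 was at 22.6, 9.54, 2.40 and 5.53 CPM with LPS and 0.645, 0.375 and 0.0289 CPM with PBS, separate groups with a log2 fold change of 4.78 ± 1.23 and an adjusted p of 0.0978. In control mice it went from 0.101 ± 0.202 to 237 ± 181 CPM (n = 4 each). Cxcl13 was at 12.3 to 19.6 CPM with LPS and 5.09 to 9.54 CPM with PBS (0.89 ± 0.70, adjusted p = 0.699), and in control mice it went from 5.08 ± 2.25 to 176 ± 136 CPM. The difference for Cxcl13 was -4.21 (adjusted p = 0.0238), and -3.54 with an adjusted p of 0.0726 without the 3 neutrophil-marked libraries. For Saa3 the difference was not called, and without those libraries its adjusted p was 0.126. Exposed mice without CBD also stood below control mice with LPS. In GW-Veh-LPS, Saa3 was at 55.4, 28.4 and 28.8 CPM and Cxcl13 at 27.0, 10.2 and 39.6 CPM.

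The response of CBD-treated exposed mice was called different from that of exposed mice without CBD for 3 genes, 2 higher (0.0121%) and 1 lower (0.00604%), each with an adjusted p of 0.0386. Adamtsl4, a secreted protein of the ADAMTS-like family (chromosome 3, 95676201 to 95687917), was at 2.87, 6.50, 1.75 and 3.53 CPM in GW-CBD-LPS and 1.77 to 1.98 CPM in GW-CBD-PBS. In GW-Veh-LPS it stood at 71.2 ± 62.3 CPM (SD, n = 3) against 1.47 ± 0.278 in GW-Veh-PBS (n = 4), and the difference of the responses was -4.65. Arl5c, an ADP-ribosylation factor-like GTPase, was at 17.8 to 21.4 CPM with LPS and 16.3 to 18.7 CPM with PBS in CBD-treated mice. Without CBD it went from 25.4 ± 6.69 to 7.41 ± 2.21 CPM, a difference of 1.96. Slamf8, of the SLAM family, was at 35.7 to 56.9 CPM and 40.4 to 50.5 CPM with CBD and went from 66.5 ± 14.7 to 22.1 ± 3.12 CPM without it, a difference of 1.61. The number of calls ran from 0 to 211 on leaving out 1 library. It was 211 without GW-CBD-LPS replicate 2, 92 without GW-Veh-LPS replicate 2, and 19 and 3 without GW-Veh-PBS replicates 2 and 4. Leaving out any other library of the compared groups gave 0 calls, as did the fit of these groups alone. DESeq2 called 380 and voom 2287. At an unadjusted p under 0.05 there were 2540 genes.

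Against control mice the difference was called for 327 genes, 157 higher (0.948%) and 170 lower (1.03%). CBD-treated exposed mice differ from control mice in both the exposure and CBD, so the part of each cannot be told apart here. Leaving out 1 library gave 105 to 510. Of the 157, 137 were called lower with LPS in control mice, and the medians were -0.12 with CBD, -1.66 in control mice and -1.19 in exposed mice without CBD. Of the 170, 168 were called higher in control mice, with medians of 0.09, 1.14 and 0.77. Most of the 327 were thus genes called in control mice, and 13 and 4 of them were called in CBD-treated exposed mice.

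Of 24 genes of LPS sensing, 1 was called lower and 1 higher in this difference. The lower one was Myd88, the adaptor of Toll-like receptors. It was at 123, 128, 129 and 132 CPM with LPS and 119, 129 and 128 CPM with PBS in CBD-treated mice, overlapping groups. In control mice it went from 131 ± 9.27 to 259 ± 17.4 CPM (n = 4 each), a difference of -0.94 (adjusted p = 0.00119). Rab32, a GTPase of lysosome-related organelles, was at 137 to 150 CPM and 105 to 127 CPM with CBD, and went from 127 ± 4.96 to 320 ± 25.5 CPM in control mice (difference -1.09, adjusted p = 0.00119). C5ar1, the receptor of complement C5a, was at 378, 607, 362 and 466 CPM against 314, 381 and 340 CPM with CBD (0.39 ± 0.23, adjusted p = 0.565). In control mice C5ar1 went from 378 ± 62.1 to 2069 ± 481 CPM (difference -2.06, adjusted p = 0.00323). In exposed mice without CBD it went from 406 ± 19.0 to 1603 ± 728 CPM, and that difference, -1.59, had an adjusted p of 0.0617. Ms4a6c, a membrane-spanning 4A protein, was at 19.0 to 33.2 CPM and 16.9 to 22.5 CPM with CBD, and reached 280 ± 139 CPM in Ctrl-Veh-LPS (difference -3.04, adjusted p = 0.00119). In GW-Veh-LPS it was at 75.2, 102 and 106 CPM.

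In the opposite direction, 2 genes nearly lost with LPS in control mice stayed measurable in CBD-treated exposed mice. Duoxa1, the maturation factor of dual oxidase 1, was at 6.85, 1.69, 12.1 and 8.69 CPM with LPS and 10.7 to 11.6 CPM with PBS in CBD-treated mice, where replicate 2 was lowest. In control mice it went from 13.1 ± 3.51 to 0.148 ± 0.237 CPM and in exposed mice without CBD from 12.5 ± 3.67 to 0.513 ± 0.465 CPM. Adcy8, an adenylyl cyclase, was at 3.84, 3.22, 4.30 and 2.04 CPM against 4.92 to 7.41 CPM with CBD, and went from 6.39 ± 1.83 to 0.0661 ± 0.132 CPM in control mice. In exposed mice without CBD it was at 0.639, 0.259 and 0.289 CPM with LPS and 2.58 to 7.2 CPM with PBS. For Duoxa1 and Adcy8 the differences from control mice were 5.72 and 5.43 (adjusted p = 0.00588 each). Neither gene was called in the difference from exposed mice without CBD.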

How the data were processed

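Poly(A) RNA of sorted microglia was sequenced in stranded 150-base paired-end libraries from RNA of integrity number 8.5 or above, per the labels' protocols. The deposited table holds whole-number read counts per gene, made by the authors on GRCm38 (mm10), per the submitters' processing notes. Aligner, counting tool and strand setting: not given in the sources used here. Overlapping, antisense and near-identical genes therefore have uncertain counts. Each of the 22 columns matched 1 sample by library name, and replicate numbers are those of the library names, from which some titles differ. Symbols that had become dates (27) were restored by identifier, and 54495 identifiers were found in GENCODE M21.

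Counts were tested with edgeR 4.0.16 in R 4.3.3 (quasi-likelihood test, TMM factors of 0.878 to 1.06, filterByExpr, 6 group means over all 22 libraries, two-sided, Benjamini-Hochberg adjusted p under 0.05 over 16554 genes). These genes hold at least 99.93% of each library's counts, and the common biological coefficient of variation was 0.352. Responses and their differences were contrasts of this fit. CPM of single genes use TMM factors, and sums over lists use library totals. Within GW-CBD-PBS and within GW-CBD-LPS, libraries differed by 17.3 or more in chi-square per degree of freedom, so none is the same library sequenced again. This check cannot tell whether separate libraries came from 1 animal. The fitting code was tested on simulated data. Figures were drawn with matplotlib 3.10.9.

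The comparison and the gene lists were chosen with earlier results of these data known. Named were, among called genes at 5 CPM or more, the 25 higher and 8 lower with the smallest p. Also named were up to 4 called members of each list (or the 2 with the smallest p), the index genes Socs3, C5ar1, Mki67, Tnf, Il1b, Cxcl10, Ifit3, P2ry12, Tmem119, Cx3cr1, Trem2, Cd74 and H2-Aa, strong responders of control mice, and up to 10 genes called in each difference. Some genes that the rule names are not reported here. Alternatives were RLE factors, library totals, no filter, DESeq2 1.42.0, voom of limma 3.58.1 with quality weights, the groups compared alone, a replicate block, each library left out, and the 3 libraries with many neutrophil transcripts left out.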

Additional observations from a re-analysis of the deposited data

Results flagged for a closer look

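In GW-CBD-LPS, 112 values (CPM of named genes and sums of lists) were searched for a library far from the others, by the gap to the nearest library over the group's range and Dixon's critical value. About 1 in 20 such groups would pass by chance, and 8 did. Replicate 3 was low for Mcm7 (38.7 CPM, ratio 0.955), Cdt1 (21.9 CPM, 0.883), Gusb (585 CPM, 0.857), the summed nucleotide supply genes (797 CPM, 0.881) and the summed G1 to S regulators (715 CPM, 0.836). Replicate 1 was high for Mki67 (13.5 CPM, 0.9). Replicate 2 was high for the summed monocyte markers (415 CPM, 0.966), and GW-CBD-PBS replicate 3 stood at 485 CPM. Replicate 4 was high for the summed Nrf2-linked, iron and heme genes (10100 CPM, 0.874).

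The response to LPS differed from that of exposed mice without CBD for Adamtsl4 (-4.65 on the log2 scale), Arl5c (1.96) and Slamf8 (1.61), each with an adjusted p of 0.0386. In GW-Veh-LPS the SD of Adamtsl4 was close to its mean, and without the 3 neutrophil-marked libraries its adjusted p was 0.0527. From control mice it differed with less rise or more fall for Adamtsl4 (-5.33), Ms4a6c (-3.04), Rab32 (-1.09) and Myd88 (-0.94), each with an adjusted p of 0.00119. The same held for C5ar1 (-2.06), Cd244a (-3.15), Psat1 (-1.47), Socs3 (-1.92), Ifi204 (-1.41), Cxcl13 (-4.21), Fkbp5 (-2.46), Ddit4 (-3.96) and Fcgr4 (-1.56), with adjusted p-values of 0.00323, 0.00609, 0.0161, 0.0173, 0.0235, 0.0238, 0.0284, 0.0302 and 0.041. With the 3 neutrophil-marked libraries left out, Ifi204 had an adjusted p of 0.0579. In the other direction were Cdc42ep1, an effector of the GTPase Cdc42 (3.04, adjusted p = 0.00119), Duoxa1 (5.72) and Adcy8 (5.43), each at 0.00588, P2ry12 (1.55, 0.00829), Tk1 (3.85, 0.0122) and Tcf19 (2.34, 0.0355). Cdc42ep1 was at 3.47, 4.24, 5.77 and 6.11 CPM in GW-CBD-LPS and 5.38 to 5.72 CPM in GW-CBD-PBS.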

How the results depend on the processing

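Counts of called genes, and which genes were called, moved with the setting. For LPS in CBD-treated exposed mice (65 higher, 4 lower), DESeq2 called 296 and 55, voom with quality weights 2071 and 1708, and the fit without the 3 neutrophil-marked libraries 141 and 14. The 7 libraries alone gave 56 and 3, of which 26 and 0 are among the 65 and 4, and 27 of 45 named calls were lost there. Without a filter on low counts 89 were higher and 2 lower. Leaving out 1 of the 7 libraries gave 0 to 198 higher and 0 to 62 lower. Leaving out 1 other library, an alternative chosen after seeing the data, gave 13 to 99 and 0 to 7. Differences from exposed mice without CBD (3 called) numbered 9 with library totals, 19 with no filter, 380 with DESeq2, 2287 with voom, 0 in the fit of the compared groups alone, 5 without the neutrophil-marked libraries and 0 to 211 on leaving out 1 library. Differences from control mice (327) numbered 888 with DESeq2, 2194 with voom and 105 to 510 on leaving out 1 library.

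Replicate numbers were tried as a block. Deviations of same-numbered libraries correlated at 0.095, -0.025 and -0.026, and those of differently numbered libraries at -0.109 to 0.114. With so few libraries these values cannot decide whether the numbers pair them. With the replicate block edgeR called 0 genes higher and 0 lower (smallest adjusted p 0.0508, 1579 genes at an unadjusted p under 0.05), 0 differences from exposed mice without CBD and 236 from control mice.

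Of 45 named genes called with LPS none changed direction in 675 refits, and 338 of these lost the call. Of 21 not called, Il1b alone turned, its values on leaving out 1 library running from -0.08 (GW-CBD-PBS replicate 4) and -0.06 (GW-CBD-LPS replicate 2) to 1.06, and 36 of 315 refits made a call. Of 22 named differences none turned in 503 refits, and 91 lost the call. All these refits reuse libraries by which the called genes were chosen, so a kept direction carries no test. Scaling by RLE or library totals moved the median of all genes by at most -0.039. At 28676930 to 40458326 counts a library, genes under 1 CPM, such as Orc1 with PBS, rest on few counts.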
